A study of Drosophila melanogaster with 43 samples.

Results

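The loci described here are the annotated fly loci that genome build dm3 keeps apart from the chromosome arms. They lie on the assembled heterochromatin (2LHet, 2RHet, 3LHet, 3RHet, XHet and YHet) or on the sequences that were not placed on any chromosome (U and Uextra). They were taken, named or not, from the expression tables of fly heads by the name of the sequence alone. Each of 8 head libraries held the same 251 such rows, among 19517 to 30978 rows in all, which is 0.810% to 1.29% of a library's rows. All 251 rows carried a gene name. None of the 4545 to 16121 unnamed assembled loci of a library lay on these sequences.

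Heterochromatin is the densely packed, repeat-rich DNA around the centromeres and along most of the Y chromosome. Repeats make it hard to assemble and make short reads hard to place. It nevertheless holds working genes, many with very long, repeat-filled introns, and several of them need the heterochromatic surroundings to be expressed properly. On the Y chromosome lie genes for sperm axoneme dyneins and the Suppressor of Stellate repeats, which give rise to small RNAs that silence the Stellate genes in the male germ line.

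The study asked which RNAs are bound by Orb and Orb2, the fly members of the CPEB family of RNA-binding proteins, and which RNAs enter protein precipitates. Head extract of Orb2 WT-GFP flies, reared on semi-defined medium with no treatment, was precipitated with biotinylated isoxazole (b-isox), a compound that brings down RNA-binding proteins with low-complexity regions. RNA was sequenced from the pellet and from the supernatant, with 4 libraries of each that carry gene names. S2 cells, an embryo-derived fly cell line, were sequenced as untransfected background cells (n = 2) and as cells overexpressing Orb2B (n = 2). Copper sulfate at 250 µM was given to both kinds of S2 culture. Hygromycin B at 300 µg/ml was given only with Orb2B, so that the antibiotic, the transfection and Orb2B cannot be told apart. The labels used here state neither the age nor the sex of the flies, and do not say that replicates came from separate animals or cultures. The p-values below therefore reflect how far these particular libraries scatter, and that scatter may be technical only.

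In the S2 libraries orb2 stood at 7.50 and 8.73 RPKM in background cells and at 2509 and 2850 RPKM in Orb2B cells, as their labels say. The head libraries carried head markers: 3 of 4 neuron markers were found in the tables and had a value in every library, with a summed FPKM of 23.1 to 42.3 in supernatants and 126 to 171 in pellets, and all 4 photoreceptor markers had a value in every library. All 8 germ line markers, among them bam and vas, had a value in every head library too. Their summed FPKM was 286 to 411 in supernatants and 397 to 639 in pellets. Of 4 blood cell markers, 3 were in the S2 table. FPKM and RPKM are scaled to gene length and library size, so that levels of different genes can be compared, and the depth behind them is unknown, so no counting error is given.

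U held 151 of the 251 rows. The assembled heterochromatin of the arms of chromosomes 2 and 3 held 6 rows on 2LHet, 25 on 2RHet, 23 on 3LHet and 20 on 3RHet. XHet held 11 rows, YHet 14, and Uextra 1, the microRNA gene mir-5613. The rows spanned 63 to 395988 bases from the first to the last base of the gene, with a median of 1092 bases. Only 6 rows were 150 bases or shorter, and 11 were at least 100000 bases long. The longest was CG17684 at 2RHet:609230-1005217, and Dbp80, a DEAD-box RNA helicase, spanned 135295 bases at 3LHet:2409852-2545146. There were 17 rows that overlapped another of the 251.

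**Figure D1:**
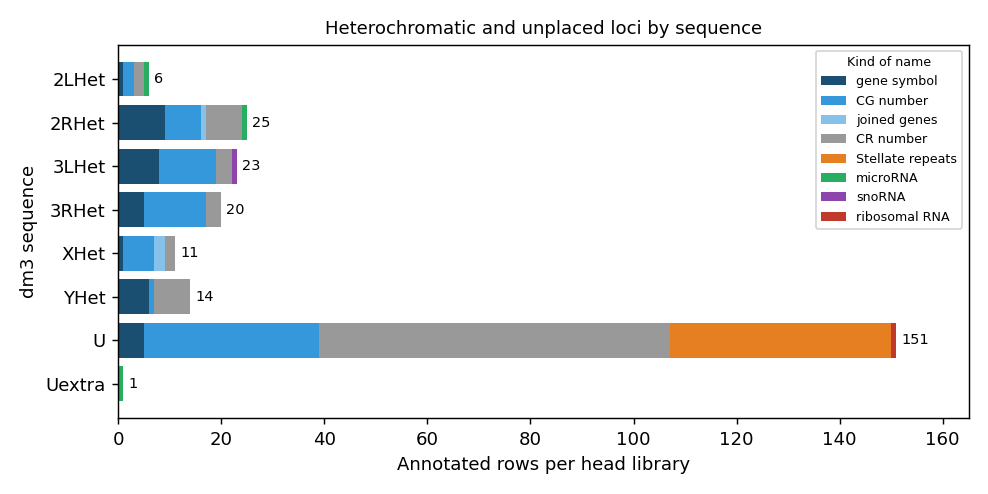
Annotated rows on each dm3 heterochromatic or unplaced sequence, the same in each of the 8 head libraries. Bars are counts of rows and colours show the kind of name. U holds 151 rows, of which 68 have CR numbers. A further 43, shown as Stellate repeats, are Suppressor of Stellate repeats except for the Stellate gene SteXh:CG42398.

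By name, 92 rows were CR numbers, which FlyBase gives to non-coding or pseudogene models, and 73 were CG numbers, which it gives to coding models. Gene symbols named 35 rows. Stellate and Suppressor of Stellate repeats gave 43 rows, 500 to 1848 bases long and all on U. All of these were Suppressor of Stellate repeats except SteXh:CG42398, a Stellate gene. The remainder were 3 microRNA genes, 1 snoRNA gene, 1 rRNA gene (5.8SrRNA:CR40454) and 3 rows that joined a pair of overlapping genes, so that the 251 rows held 254 gene names. With newer symbols counted, 7 rows were rRNA genes or pseudogenes, and all of them but 5.8SrRNA:CR40454 stood under CR numbers. Only 5 of the 35 rows with a symbol lay on U, against 9 on 2RHet, 8 on 3LHet and 6 on YHet.

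Many rows are pieces of a gene that is now known as 1 gene. Newer symbols were found for 132 rows by gene identifier and for 44 by a single synonym in the RefSeq table of Release 6, while 4 synonyms were ambiguous. Of these, 10 rows on 3RHet and U now belong to Myo81F, an unconventional myosin, and 5 to Pzl, a Piezo-like channel. The Y-linked dynein gene kl-3 was in 3 pieces on YHet and U, and kl-5 in 2. PRY and WDY, also Y-linked, were in 3 and 2 pieces, all on U. DIP-lambda, a neuronal cell surface protein, was in 3 pieces on U, and lovit, a vesicular transporter that loads histamine in photoreceptors, was in 3 pieces on 3LHet and U.

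In the heads, every one of the 251 rows was listed at an FPKM of 0 in each of the 4 supernatants and each of the 4 pellets. The upper bound of the confidence interval that Cufflinks writes beside each FPKM was also 0 in every row and library, and every row had the status OK. With all values at 0, the tables hold nothing on how these loci divide between pellet and supernatant, and no level, fold or test between the fractions can be given for any locus.

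The zeros covered genes of every role. Among housekeeping genes, RpL15, a protein of the large ribosomal subunit, was listed at 0 in all 8 libraries. So were CG40042 (Tim23), the channel of the inner mitochondrial membrane translocase, and Ucrh (UQCR-11), a subunit of respiratory complex III. Among signalling and chromatin genes, rl, the fly ERK kinase, vtd, the Rad21 subunit of cohesin, and Parp, a poly(ADP-ribose) polymerase, were listed at 0. Among genes with known roles in neurons or endocrine cells, RYamide, a neuropeptide gene, Gpb5, a glycoprotein hormone subunit, scro, an NK2-type homeobox gene, and spok, a cytochrome P450 of ecdysone synthesis, were listed at 0. All 18 names in the list of Y-linked genes and all 43 Stellate and Suppressor of Stellate rows were at 0 as well. In the same libraries the 8 germ line markers on other sequences had values.

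**Figure D2:**
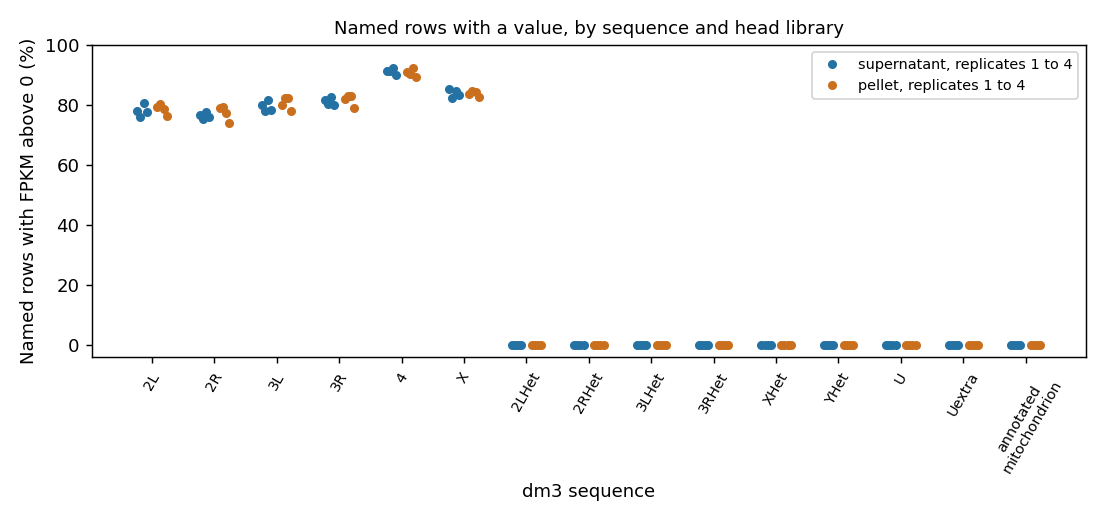
Percent of named rows with an FPKM above 0 on each dm3 sequence, with 1 point for each of the 4 supernatant and 4 pellet libraries. On the arms and chromosome 4 the points lie between 74.0% and 92.4%, and on the heterochromatic, unplaced and annotated mitochondrial sequences every point is at 0.

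On the arms and chromosome 4, by contrast, 77.8% to 81.9% of named rows had a value above 0, depending on the library. The lowest share of any arm in any library was 74.0%, on 2R, and the highest was 92.4%, on chromosome 4, which is itself rich in heterochromatin. Of 234 arm genes within 1 Mb of the centromere-side end, 222 (94.9%) had a value in at least 1 library and 171 (73.1%) in all 8, with a median of their mean FPKM of 2.75. Of 15069 arm genes outside these windows, 90.6% had a value in at least 1 library and 68.0% in all 8, with a median of 2.80. On the heterochromatic and unplaced sequences the count was 0 of 254 gene names.

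Genes of related roles on the arms had values in most libraries. Of 16 such genes, 13 had a value in all 8 head libraries, none was at 0 in all 8, and AGO3, SMC1 and nvd were at 0 in some. RpL38, another ribosomal protein gene, near the centromere at 2R:403502-403961, stood at 14.1, 8.73, 16.8 and 8.43 FPKM in supernatants 1 to 4 and at 21.1, 63.4, 38.4 and 22.0 FPKM in pellets 1 to 4. Every pellet lay above every supernatant, as did the median FPKM of all named rows on 2R, which was 1.15 to 1.36 in supernatants and 2.29 to 3.29 in pellets. Of 86 ribosomal protein genes on the arms, 83 had a value in all 8 libraries and none was at 0 in all 8, with a median of their mean FPKM of 2629, while RpL15 was at 0 throughout. Nipped-B, the loader of the cohesin ring to which vtd belongs, at 2R:579147-616515, stood at 5.95 to 8.47 FPKM in supernatants and 14.2 to 27.2 FPKM in pellets.

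A similar listing was seen for 1 other sequence. The 32 rows annotated on the mitochondrial genome, which hold 37 gene names, were at 0 in all 8 libraries. In the same tables, assembled loci without a name on a sequence called M appeared in each of the 4 pellets, 1, 1, 3 and 2 of them in pellets 1 to 4, and their highest FPKM was 178, 1843, 963 and 1978. None appeared in the 4 supernatants. M is the name that dm3 gives the mitochondrial genome, so the annotated rows and the assembled loci named it differently. The assembled loci of these 8 libraries lay on 2L, 2R, 3L, 3R, 4, X and M alone. Head replicates 5 and 6, whose 14001 to 15370 loci per library have no gene names, also had loci on those 7 sequences alone and 0 loci on the heterochromatic or unplaced ones. Why the heterochromatic, unplaced and annotated mitochondrial rows were at 0 was not tested.

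The S2 libraries of the same series gave a value for part of these genes. Of the 254 gene names, 111 matched the S2 table of 13792 genes, 106 by gene identifier and 5 by name. Of the 111, 53 were listed at 0 in all 4 libraries, 58 had a value in at least 1 and 38 in all 4. At least 1 RPKM was reached by 21.6% to 27.9% of the 111 in a library, against 48.4% to 51.7% of all genes. Pieces of a gene that is now known as 1 gene were counted separately among the 111, and many of them were listed at 0. A mean of at least 1 RPKM over the 4 libraries was reached by 30 genes, and at least 10 RPKM by 5. By sequence, the 30 were 8 of 17 matched genes on 2RHet, 7 of 10 on XHet, 6 of 19 on 3LHet, 4 of 16 on 3RHet, 2 of 3 on 2LHet, 3 of 39 on U and 0 of 7 on YHet.

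All 30 genes with a mean of at least 1 RPKM in S2 cells were listed at 0 in all 8 head libraries. Of 6829 genes of the arms and chromosome 4 with that level in S2 cells, 192 (2.81%) were at 0 in all 8 head libraries. At 10 RPKM or more the counts were 5 of 5 and 96 of 4341 (2.21%). The counts of 30 and of 5 were fixed in advance, since every heterochromatic or unplaced row was at 0 in the heads. They add nothing to that result.

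The levels in S2 cells spread widely. RpL15, at 3LHet:2397791-2398981, was the highest, at 151 and 184 RPKM in background libraries, against 139 and 150 in Orb2B libraries. This was low for its kind, as 75 of 84 ribosomal protein genes in the table had a higher mean than its 156 RPKM, and their median was 4397 RPKM. Next came su(f), at XHet:69142-80249, whose product acts in 3′ end cleavage of mRNA, at 20.0 and 18.1 RPKM in background libraries, against 17.6 in both Orb2B libraries. CG17168, at XHet:61585-63394, had 17.6 and 20.2 RPKM against 13.6 and 16.2. CG40042 (Tim23), at 2LHet:167980-169093, had 12.4 and 15.5 against 12.1 and 15.3 RPKM, so that its groups overlapped. RpL15 stood far above the others, while su(f), CG17168 and CG40042 lay within about the same range.

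**Figure D3:**
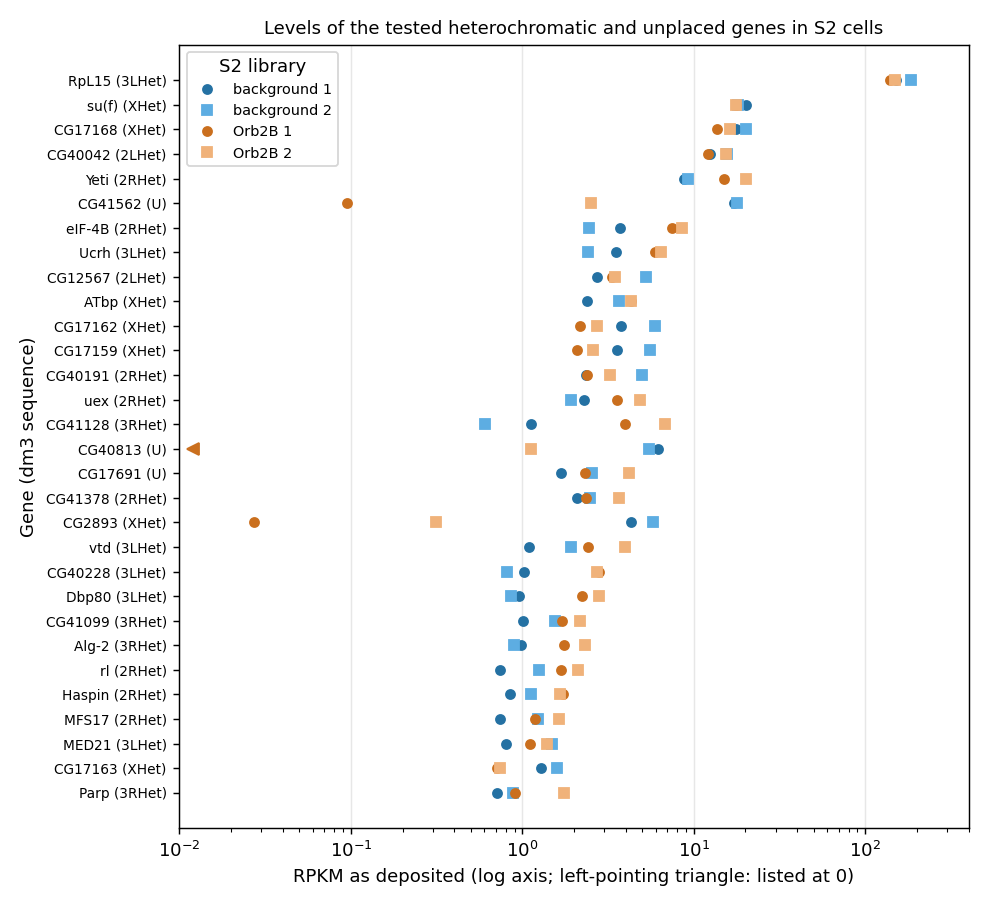
RPKM, as deposited and on a log axis, of the 30 heterochromatic or unplaced genes with a mean of at least 1 in S2 cells, with 1 point per library. RpL15 lies at 139 to 184, most others lie under 10, and CG41562, CG40813 and CG2893 fall far lower in Orb2B than in background cells.

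Orb2B cells differed from background cells in 14 of the 30 genes tested, 9 higher and 5 lower (limma, Benjamini-Hochberg adjusted p under 0.05 over all 7068 genes tested). Over all genes tested, 37.8% were called, 18.3% higher and 19.5% lower. The median log2 difference (Orb2B minus background) was 0.47 over the 30 genes and 0.03 over all genes. Values of 23 of the 30 genes did not overlap between the groups, where 69.2% of all genes tested did not. The share of the 30 that was called lay above that of all genes here but not in every setting. With values as deposited it was 33.3% against 34.5% of all genes. Without Orb2B replicate 2 the count fell to 8 of 29, or 27.6% against 27.4% of all genes. With quantile normalization it was 19, 16 higher and 3 lower, or 63.3% against 34.3% of all genes. The 30 are the genes that passed the minimum of 1, not all 254. The summed RPKM of the 3 blood cell markers, 62.4 to 85.4 in background and 14.6 to 67.0 in Orb2B cells, reached lower in the same Orb2B libraries, where 2 of the 3 had a value in both, and their part in these differences was not tested.

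The 9 higher genes lay on 2RHet (3 of 8 tested), 3LHet (4 of 6) and 3RHet (2 of 4). Among all genes tested, 18.3% were called higher. CG41128, at 3RHet:1806528-1808475, stood at 1.12 and 0.605 RPKM without Orb2B, against 3.95 and 6.82 with it. Its log2 difference was 2.15 ± 0.31 (SE, n = 2 per group; limma adjusted p = 0.00139). Both Orb2B libraries lay above both background libraries, as they did for all 9 genes. These 9 were called from the same values, so this adds nothing to the calls. Of all genes tested, 69.2% did not overlap between the groups in either direction.

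Genes that act on RNA were among the higher ones. eIF-4B, a translation initiation factor, at 2RHet:2901752-2917318, had 3.73 and 2.43 RPKM in background and 7.43 and 8.54 in Orb2B cells (log2 difference 1.34 ± 0.26 SE, limma adjusted p = 0.00529). Dbp80, the DEAD-box helicase, had 0.954 and 0.857 against 2.24 and 2.82 RPKM (1.16 ± 0.25 SE, limma adjusted p = 0.00773). RpL15 (log2 difference -0.12) and su(f) (-0.02), whose products act in translation and on mRNA, were not called. The list of RNA binding and translation genes held eIF-4B, Dbp80, RpL15 and Yeti, of which 3 rose and none fell, with a median log2 difference of 1.08. Among all genes tested, 18.3% were called higher and 19.5% lower, with a median of 0.03. That list held Yeti, whose product is chromatin-associated, and did not hold su(f). Its count and median therefore do not describe genes that act on RNA alone. The third that rose was Yeti, at 2RHet:470785-471747, a protein of the chromatin-associated BCNT family, with 8.77 and 9.23 against 15.0 and 20.1 RPKM (0.99 ± 0.19 SE, limma adjusted p = 0.0055). Yeti did not pass without Orb2B replicate 2 (limma adjusted p = 0.0720).

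The list of chromatin and chromosome cohesion genes held su(f), whose product acts on mRNA, and did not hold Yeti. Of the 4 genes of this list that were tested, 1 rose and none fell, with a median log2 difference of 0.57. Among all genes tested, 18.3% were called higher and 19.5% lower, with a median of 0.03. The gene that rose was vtd, the cohesin subunit, at 3LHet:2243577-2265363, with 1.09 and 1.92 RPKM in background and 2.41 and 3.96 in Orb2B cells (log2 difference 0.94 ± 0.29 SE, limma adjusted p = 0.0330). With no filter on the mean (limma adjusted p = 0.0914) or with values as deposited (limma adjusted p = 0.0580) vtd was not called. It did not pass without background replicate 1 (limma adjusted p = 0.1004) or without Orb2B replicate 2 (limma adjusted p = 0.162). Haspin, the kinase of histone H3, had a log2 difference of 0.63, Parp of 0.50 and su(f), which the list also holds, of -0.02, and none of them was called. Set1, a histone H3 methyltransferase and the fifth of the list, had 0.560 and 0.577 RPKM in background and 1.08 and 1.12 in Orb2B cells and stayed under the minimum for testing.

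Of the signalling and membrane genes, uex, a magnesium transporter of the CNNM family at 2RHet:3136909-3181390, had 2.30 and 1.92 RPKM in background and 3.56 and 4.86 in Orb2B cells (log2 difference 0.91 ± 0.24 SE, limma adjusted p = 0.0195). With no filter on the mean uex was not called (limma adjusted p = 0.0644). Without Orb2B replicate 2 it did not pass (limma adjusted p = 0.119). The ERK gene rl, at 2RHet:198176-251950, had 0.744 and 1.25 RPKM against 1.68 and 2.12, a log2 difference of 0.76 that just missed the threshold (limma adjusted p = 0.0530).

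The other 3 higher genes were in none of the lists. Ucrh (UQCR-11), at 3LHet:606165-607415, had 3.53 and 2.40 RPKM in background and 5.91 and 6.47 in Orb2B cells (log2 difference 1.04, limma adjusted p = 0.0140). With no filter on the mean Ucrh was not called (limma adjusted p = 0.0564). CG40228, at 3LHet:2188916-2190731, had 1.03 and 0.815 against 2.79 and 2.71 RPKM (1.26, limma adjusted p = 0.00629). Alg-2, a calcium-binding EF-hand protein, at 3RHet:1894569-1899122, had 0.984 and 0.897 against 1.75 and 2.32 RPKM (0.87, limma adjusted p = 0.0275). It was not called with no filter (limma adjusted p = 0.0518) or with values as deposited (limma adjusted p = 0.0501). Alg-2 did not pass without background replicate 2 (limma adjusted p = 0.0725) or Orb2B replicate 2 (limma adjusted p = 0.111).

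**Figure D4:**
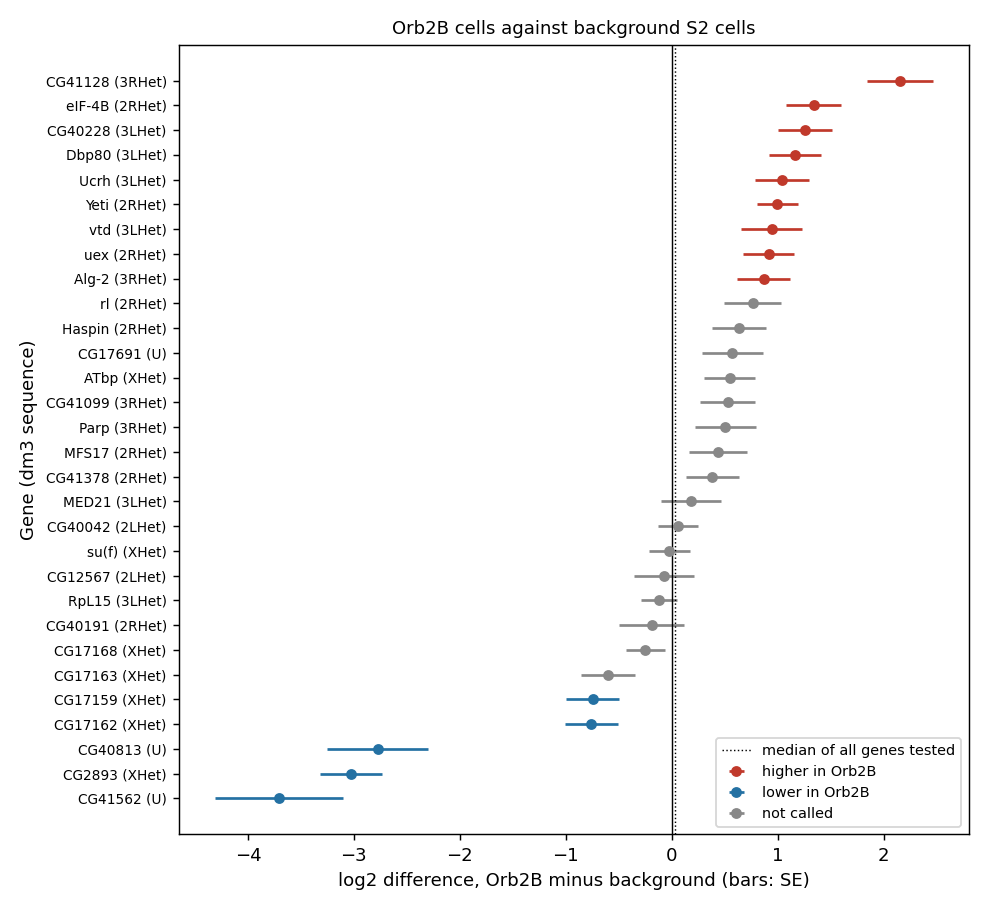
Log2 difference between Orb2B and background cells, with its SE, for the 30 genes tested. The 9 called higher lie on 2RHet, 3LHet and 3RHet, the 5 called lower lie on XHet and U, and the dotted line is the median of all 7068 genes tested, 0.03. Of all genes tested, 18.3% were called higher and 19.5% lower.

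The 5 lower genes lay on U (2 of 3 tested) and XHet (3 of 7), and 3 of them fell to a small part of their background level. Among all genes tested, 19.5% were called lower. CG41562, at U:5467096-5467810, had 17.2 and 17.9 RPKM in background cells and 0.0949 and 2.53 in Orb2B cells (log2 difference -3.70 ± 0.60 SE, limma adjusted p = 0.00232). CG40813, at U:3136262-3136976 and also 715 bases long, had 6.15 and 5.48 RPKM in background cells, was listed at 0 in Orb2B replicate 1 and had 1.12 in replicate 2 (-2.78 ± 0.48 SE, limma adjusted p = 0.00304). The Orb2B libraries differed from each other for both genes: without Orb2B replicate 1 the log2 difference was -2.54 for CG41562 and -1.93 for CG40813, and without Orb2B replicate 2 it was -4.83 and -3.59. Whether the pair are near-identical copies that share reads was not tested.

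CG2893 (zyd), a sodium, calcium and potassium exchanger known from glia, at XHet:2141-13174, had 4.33 and 5.78 RPKM in background cells and 0.0271 and 0.314 in Orb2B cells (log2 difference -3.03 ± 0.29 SE, limma adjusted p = 0.000253). The size depended on the pseudocount: at 0.1 and 1 in place of 0.5 the log2 difference was -4.43 and -2.33 for CG2893, -4.05 and -2.19 for CG40813, and -4.56 and -3.20 for CG41562. The 4 glial markers, of which 3 had a value in every library of each group, had a lower sum in Orb2B cells. Their summed RPKM was 18.8 to 32.4 in background and 9.42 to 14.4 in Orb2B cells, which does not give the direction of each marker. The summed RPKM of 3 neuron markers went the other way, from 7.38 to 7.80 in background to 8.44 to 9.78 in Orb2B cells. The part of these markers in the difference of CG2893 was not tested. CG17162 and CG17159 share the span XHet:63778-75553 and 1 row in the head tables, so their reads may not be separable. CG17162 had 3.75 and 5.95 RPKM in background and 2.17 and 2.72 in Orb2B cells (-0.76, limma adjusted p = 0.0441), and CG17159 had 3.56 and 5.57 against 2.07 and 2.58 (-0.74, limma adjusted p = 0.0463). Neither was called at a pseudocount of 0.1, with no filter, with values as deposited or with quantile normalization (limma adjusted p 0.0502 to 0.264). Both calls were lost without background replicate 2 (limma adjusted p = 0.111 and 0.116), without Orb2B replicate 1 (0.253 and 0.259) and without Orb2B replicate 2 (0.109 and 0.119). Their neighbour CG17167, at XHet:47121-59583, had 1.27 and 1.55 RPKM in background and 0.0243 and 0.0432 in Orb2B cells, but its mean was under the minimum, so it was not tested.

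Genes of the Y chromosome and of the repeats were at or near 0 in S2 cells. The list of Y-linked genes held 18 names, all in the S2 table and several of them pieces of 1 gene. Among the rows it left out were the 7 with CR numbers on YHet, which the S2 table does not hold. It also left out Mst77Y-16Psi, and CG40245, CG40583, CG40968 and CG40948, whose synonyms WDY or CCY were ambiguous. These were listed at 0 in all 4 S2 libraries. Of the 18, only CG41503 (FDY) had a value, 0.164 RPKM in Orb2B replicate 1, and the other 17 were listed at 0 in all 4 libraries. Of the 43 Stellate and Suppressor of Stellate rows, 1 was in the S2 table, the Stellate gene SteXh:CG42398. It had 0.0991 RPKM in Orb2B replicate 1 and was listed at 0 in the other 3 libraries. Of the 15 pieces of Myo81F and Pzl, 2 had a value, CG40188 with 0.0209 and CG42624 with 0.00401 RPKM, both in Orb2B replicate 2. None of these genes reached the minimum for testing.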

How the data were processed

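The head tables hold FPKM, deposited by the authors for each annotated gene and each assembled locus. For them the submitters' processing notes name CASAVA 1.9.1, TopHat and Cufflinks and build dm3. The S2 table holds RPKM for each gene, also deposited by the authors. For it the notes list cutadapt, Novoalign, Bowtie and CASAVA 1.9.1. Their roles are not given in the sources used here. The crosslinking libraries were not analysed here. File starts count from 0, and positions are printed counted from 1.

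The loci and gene lists were chosen with earlier results of these data known. The planned head fits had no value above 0 to test, so the rule for named genes (called genes, the 10 highest, up to 4 per list) was applied to S2 RPKM. RPKM was divided by each library's median ratio to the geometric mean. The fit took log2(scaled RPKM + 0.5) of genes whose mean reached 1. It used R 4.3.3 and limma 3.58.1, two-sided, with a mean-variance trend, and was checked on simulated data. Genes were called at an adjusted p under 0.05, by the Benjamini-Hochberg method. This scale understates changes of low genes. Tables used Python 3.11.15, pandas 2.3.3 and numpy 2.4.6, and figures matplotlib 3.10.9.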

Additional observations from a re-analysis of the deposited data

How the results depend on the processing

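In S2 cells, 14 of 30 heterochromatic or unplaced genes were called. A minimum mean of 5 left 7 genes to test and 3 called. Leaving out 1 library at a time gave 8 to 13 called, or 27.6% to 44.8% of those tested, while 19.9% to 46.3% of all genes were called in these fits (the lone library left is assumed to vary like the other group). The share of the heterochromatic or unplaced genes was at or below that of all genes without background replicate 1 (44.8% against 46.3%), with no filter (19.0% against 20.5%) and with values as deposited (33.3% against 34.5%). Without Orb2B replicate 2, 8 were called. The replicate block gave 15. Quantile normalization gave 19, 16 higher and 3 lower, against 9 and 5. The other settings gave 10 to 17. Of the 14 genes, 7 were called in every setting in which they were tested: CG2893, CG40228, CG40813, CG41128, CG41562, Dbp80 and eIF-4B. No called log2 difference changed sign. The replicate numbers do not show pairing (correlation of deviations 0.05). In the heads the differences in rows and in share of summed FPKM, also with the replicate block, are 0 by construction, since the annotated rows are the same in every table and all are at 0, so the alternatives tested nothing. For the same reason the planned fits of named and unnamed head loci gave no value. Depth is unknown, so a value of 0 sets no upper limit on a locus.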
